A study of Mus musculus with 12 samples.

Results

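The epidermal growth factor (EGF) receptor family and its ligands were followed as 10 genes, picked by gene symbol from the 53465 genes counted in mouse left ventricle. Of these, 4 were receptors (Egfr, Erbb2, Erbb3 and Erbb4) and 6 were ligands made as membrane-bound precursors (Hbegf, Tgfa, Areg, Ereg, Btc and Nrg1). RNA came from 12 mice, 3 in each of 4 groups, with 1 library per mouse. All mice carried floxed Adam17 alleles (A17fl/fl, C57BL/6J background), and in A17α-MHCKO mice the α-MHC promoter also drove Cre recombinase, which cuts out exon 2 of Adam17 in cardiomyocytes. Controls were A17fl/fl littermates without Cre, so Cre itself and the loss of Adam17 cannot be told apart. In each genotype 1 group received doxorubicin (DOX), an anthracycline chemotherapy drug that injures the heart, and the other the same volume of normal saline (NS). Doxorubicin was given intraperitoneally at 5 mg/kg on day 0, 7, 14 and 21, for a total of 20 mg/kg. The mice were males aged 8 weeks at the start, and hearts were taken 4 weeks after the last injection.

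ERBB receptors are tyrosine kinases that pair up when a ligand binds and then signal through RAS, ERK, PI3K and AKT. Their ligands are held at the cell surface until a protease cuts them loose, and ADAM17, better known for releasing tumor necrosis factor, is the main protease for HB-EGF, TGFα, amphiregulin and epiregulin. In the heart, neuregulin 1 from endothelial cells acts on ERBB4 and its partner ERBB2 in cardiomyocytes, and antibodies against ERBB2 make anthracyclines more harmful to the heart. The counts measure mRNA, so neither the proteins nor their shedding was measured here.

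Libraries held 15950717 to 21725076 counted fragments. Levels are given as CPM (counts scaled to a common library size) after TMM normalization, and 16101 genes passed a filter on low counts and were tested in one edgeR quasi-likelihood model. Adam17, counted over the whole gene and all cells, was lower in the 6 A17α-MHCKO libraries (27.9 to 36.8 CPM) than in the 6 A17fl/fl libraries (43.6 to 70.9 CPM), with an exact two-sided permutation p of 0.0022, the smallest that 6 against 6 can give. Replicate 1 of A17fl/fl + NS stood apart from the other 11 libraries, at -120 on the first principal component against -12.9 to 28.4. Its summed cardiomyocyte markers reached 25489 CPM against 37819 to 60287 in the others, its fibroblast markers 9698 against 3799 to 6014, and its neutrophil markers 2603 against 6.52 to 69.6. Many values that moved with this library are also given without it. All 12 cardiomyocyte markers were detected in every library. Summed atrial markers ranged from 422 to 8876 CPM in these ventricular samples, with Bmp10 at 0 in 3 libraries, Sln in 2 and Myl7 in 1, and their part in the results was not tested.

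Per unit of gene length, the ligand Hbegf was the most abundant of the 10 mRNAs. Fragments per kilobase of gene, scaled to library size (FPKM), allow genes of different length to be set side by side, and the median FPKM over the 12 libraries was 7.20 for Hbegf. It was followed by Erbb3 at 2.77, Erbb2 at 2.18, Egfr at 0.886 and Erbb4 at 0.876. The remaining ligands were scarcer, with Tgfa at 0.264, Btc at 0.206, Nrg1 at 0.0972, Ereg at 0.0851 and Areg at 0. Hbegf was above Erbb3 in 12 of 12 libraries and its range did not meet that of any other member. Every other pair of neighbours in this order had overlapping ranges, and Erbb3 exceeded Erbb2 in only 8 of 12 libraries, Egfr exceeded Erbb4 in 8, Tgfa exceeded Btc in 7 and Nrg1 exceeded Ereg in 6. Tgfa, Btc, Nrg1, Ereg and Areg were thus read from few fragments in most libraries, and small differences in them were not detectable at this depth with 3 mice per group.

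**Figure D1:**
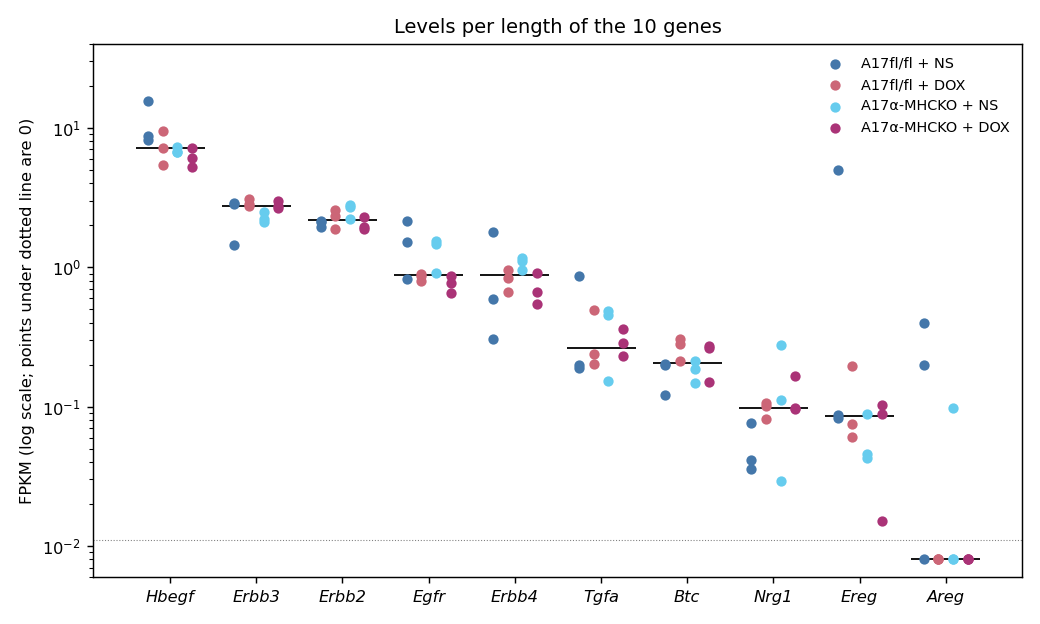
Deposited FPKM (log scale) of the 10 genes, ordered by their median over 12 libraries (black lines); each point is 1 library, coloured by group, and points under the dotted line are 0. Hbegf lies above all other members, whereas Areg is at 0 in 9 of 12 libraries and Ereg has 1 library, A17fl/fl + NS replicate 1, at 5.00 FPKM.

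Egfr encodes the founding receptor of the family, which binds all of these ligands but neuregulin 1. Egfr was read at 24.9, 18.5 and 11 CPM in A17fl/fl + NS mice and at 10.6, 9.79 and 11 CPM in A17fl/fl + DOX. In A17α-MHCKO mice it was at 19.8, 10.4 and 16.7 CPM after saline and at 8.25, 9.81 and 10.8 CPM after doxorubicin. The doxorubicin libraries thus lay close together at the low end of a wide saline range. In A17fl/fl mice the groups did not overlap, although the lowest saline library (11.0262 CPM) exceeded the highest doxorubicin library (11.0002 CPM) by almost nothing, and in A17α-MHCKO mice 1 saline library fell within the doxorubicin range. The log2 difference between doxorubicin and saline was -0.79 (SE 0.29, adjusted p = 0.414) in A17fl/fl mice and -0.70 (SE 0.29, adjusted p = 0.761) in A17α-MHCKO mice. Over both genotypes the mean was 10.05 CPM with doxorubicin and 16.9 CPM with saline, or -40.5%, with a log2 difference of -0.75 (SE 0.21, adjusted p = 0.301). An exact two-sided permutation test of these 6 against 6 libraries gave p = 0.015, unadjusted for the other members and contrasts tested. The share of all genes passing this test was not computed, and 10.7% passed an unadjusted edgeR p under 0.05 in this contrast. Without A17fl/fl + NS replicate 1 the log2 difference was -0.50 (adjusted p = 0.560) in A17fl/fl mice and -0.60 (adjusted p = 0.194) over both genotypes, and the exact permutation p was 0.030. The adjusted p of the pooled contrast ran from 0.0572 (DESeq2) to 0.624 over the alternatives, so no setting placed Egfr below 0.05. The difference between the genotypes in the response was 0.10 (SE 0.41, adjusted p = 0.967), or -0.20 (adjusted p = 0.951) without replicate 1.

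The summed CPM of 10 fibroblast markers was lower with doxorubicin in A17α-MHCKO mice, without overlap, whereas in A17fl/fl mice the groups overlapped. It ranged from 3862 to 9698 in A17fl/fl + NS and from 4054 to 4474 in A17fl/fl + DOX, and from 4705 to 6014 in A17α-MHCKO + NS and from 3799 to 4277 in A17α-MHCKO + DOX. The median log2 difference of these markers with doxorubicin was -0.32 in A17α-MHCKO mice and -0.11 in A17fl/fl mice. Without replicate 1 of A17fl/fl + NS the A17fl/fl median was 0.10, and Egfr was at -0.50. All 10 markers were detected in every library, and their part in the Egfr values of either genotype was not tested. The library with the most fibroblast marker RNA was also the one with the most Egfr, but the library second for these markers, A17α-MHCKO + NS replicate 2, held only 10.4 CPM of Egfr. In whole tissue, fewer cells of a type and less RNA per cell cannot be told apart.

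**Figure D2:**
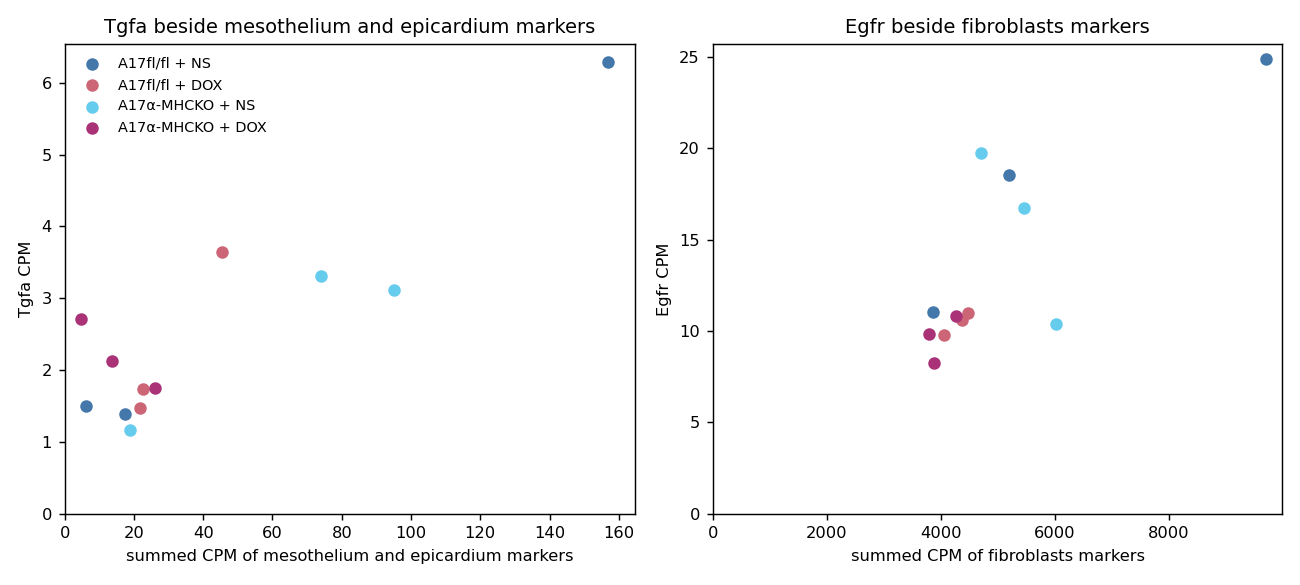
Left, Tgfa (CPM) against the summed CPM of mesothelium and epicardium markers; right, Egfr (CPM) against the summed CPM of fibroblast markers; each point is 1 of 12 libraries, coloured by group. The 4 libraries highest for mesothelium markers are the 4 highest for Tgfa, and A17fl/fl + NS replicate 1 is highest for both Egfr and fibroblast markers.

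The sequence just before the transcription start is shown for Egfr, a member read in all libraries, beside that of Areg, the member read in the fewest. The 120 bases come from RefSeq (GRCm38.p6, plus strand), at chr11:16752083-16752202 for Egfr and chr5:91139479-91139598 for Areg, and 6 of the 10 members had an entry. Capitals mark matches to 3 motifs sought on either strand in the 250 bases before the start, the cyclic AMP response element TGACGTCA, the GC box GGGCGG and the TATA box TATAAA.
Egfr: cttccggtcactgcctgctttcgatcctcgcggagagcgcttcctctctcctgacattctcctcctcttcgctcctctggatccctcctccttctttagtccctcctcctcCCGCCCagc
Areg: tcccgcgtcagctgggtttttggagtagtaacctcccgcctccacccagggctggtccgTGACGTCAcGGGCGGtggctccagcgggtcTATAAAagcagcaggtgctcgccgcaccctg

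Egfr had 1 GC box, on the opposite strand, from 9 to 4 bases before the start, and neither of the other motifs. Areg had the cyclic AMP response element from 61 to 54 bases, a GC box from 52 to 47 and a TATA box from 31 to 26 bases before the start. Of 32851 mouse promoters of this length, 1.55% held the cyclic AMP response element, 32.7% the GC box and 12.4% the TATA box. These matches describe the letters and were not tested as binding sites.

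Erbb2 encodes the receptor that binds no ligand and serves as partner to the others. Its level was 13.6, 14.2 and 14.3 CPM in A17fl/fl + NS and 12.7, 15.8 and 17.3 CPM in A17fl/fl + DOX. It was 15.7, 17.1 and 17.6 CPM in A17α-MHCKO + NS and 13.2, 13.6 and 15.7 CPM in A17α-MHCKO + DOX. After saline, all 3 knockout libraries exceeded all 3 A17fl/fl libraries, with a log2 difference of 0.26 (SE 0.14, adjusted p = 0.563), and within A17α-MHCKO mice all 3 doxorubicin libraries lay below the saline libraries (-0.25, SE 0.14, adjusted p = 0.824). The highest of these doxorubicin libraries (15.6665 CPM) was almost level with the lowest saline library (15.7417 CPM). In A17fl/fl mice the groups overlapped (0.12, SE 0.14). The difference between these responses was -0.37 (SE 0.20, adjusted p = 0.844). Erbb2 had the narrowest intervals of the 8 tested members, and after doxorubicin the 95% interval for the genotype difference ran from -0.42 to 0.21.

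Erbb3 encodes a neuregulin receptor whose own kinase is nearly inactive. Erbb3 was at 8.25, 17.4 and 18.7 CPM in A17fl/fl + NS and at 18.7, 17.2 and 16.6 CPM in A17fl/fl + DOX. In A17α-MHCKO mice it was at 13.9, 14.2 and 11.7 CPM after saline and at 16.4, 17.3 and 18 CPM after doxorubicin. In the knockout all doxorubicin libraries exceeded all saline libraries, by 0.38 (SE 0.25, adjusted p = 0.836), whereas in A17fl/fl mice the groups overlapped at 0.25 (SE 0.25), a value that turned to -0.045 without replicate 1 of A17fl/fl + NS. Between genotypes after saline the log2 difference was -0.15 (SE 0.25), and without that replicate it was -0.44 (adjusted p = 0.280) and the groups did not overlap. Over both genotypes the exact permutation p for 6 against 6 was 0.0498 with all libraries and 0.0996 without that replicate, and the adjusted edgeR p was 0.533. Summed cardiomyocyte markers were 52888 to 58533 CPM in A17α-MHCKO + DOX against 37819 to 47785 in A17α-MHCKO + NS. At an unadjusted p under 0.05, 7 of these 12 markers were higher, where 6.42% of all genes passed in either direction. The library lowest for these markers, A17fl/fl + NS replicate 1, was also lowest for Erbb3. But replicate 3 of that group, at rank 9 of 12 for the markers, was at rank 2 for Erbb3. The library highest for the markers, A17fl/fl + DOX replicate 3, was at rank 7 for Erbb3. The part of these markers in the result was not tested.

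Erbb4 encodes the main neuregulin receptor of cardiomyocytes. The 3 libraries of A17fl/fl + NS were far apart, at 3.69, 22.6 and 8.33 CPM, and those of A17fl/fl + DOX were at 12.2, 8.43 and 10.6 CPM. Levels were 12.8, 13.2 and 13.8 CPM in A17α-MHCKO + NS and 7.18, 8.84 and 11.8 CPM in A17α-MHCKO + DOX, so that the groups of this genotype did not overlap. The log2 difference was -0.51 (SE 0.48, adjusted p = 0.878) in A17α-MHCKO mice and -0.15 (SE 0.48, adjusted p = 0.931) in A17fl/fl mice. The A17fl/fl value was -0.57 (adjusted p = 0.593) without A17fl/fl + NS replicate 1 and turned to 0.80 (adjusted p = 0.203) without replicate 2. The genotype difference after saline, 0.20 (SE 0.48) with all libraries, was 1.14 without A17fl/fl + NS replicate 2 and -0.23 without replicate 1, since single libraries set both ends of the range. Replicate 2, highest for Erbb4, was second for atrial markers (7865 CPM) and first for mesothelium markers (157 CPM). Summed cardiomyocyte markers moved opposite to Erbb4 in A17α-MHCKO mice, at 52888 to 58533 CPM after doxorubicin and 37819 to 47785 CPM after saline. But A17fl/fl + NS replicate 1 was lowest for both Erbb4 and these markers. The part of these tissues and cells in the Erbb4 values was not tested.

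**Figure D3:**
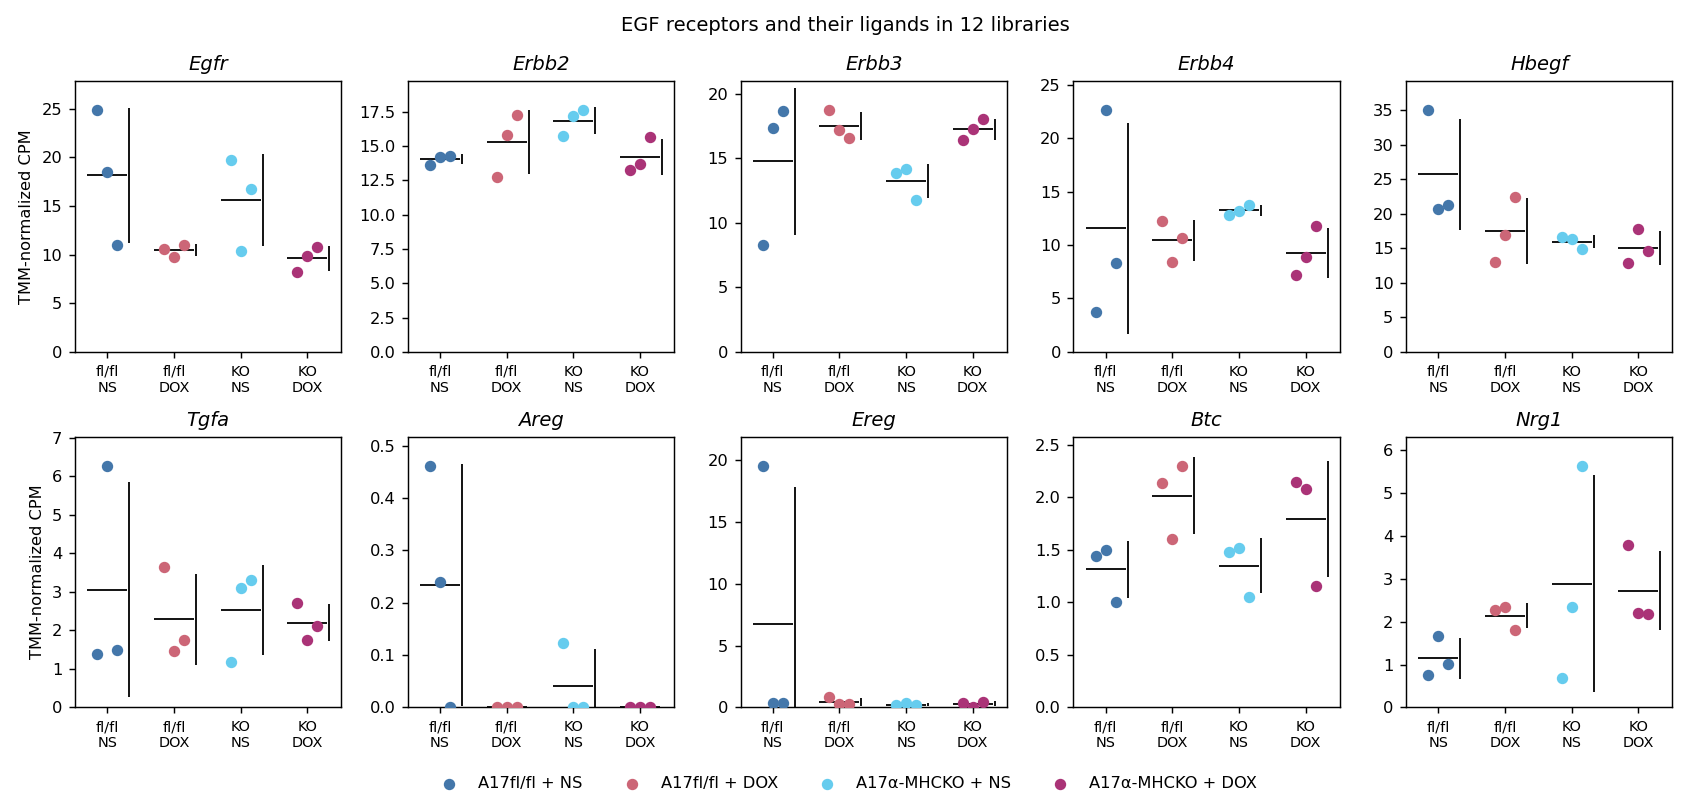
TMM-normalized CPM of the 10 genes in the 4 groups; each point is 1 library, horizontal lines are group means and vertical bars the SD of 3 libraries (cut at 0). Egfr is lower and less spread in both doxorubicin groups, and the mean of Ereg in A17fl/fl + NS rests on 1 library.

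Among the ligands, Hbegf codes for heparin-binding EGF-like growth factor, which acts on EGFR and ERBB4 and is needed for normal heart chambers and valves. Hbegf was at 35, 20.8 and 21.3 CPM in A17fl/fl + NS and at 13, 17 and 22.5 CPM in A17fl/fl + DOX. It was at 16.6, 16.3 and 14.9 CPM in A17α-MHCKO + NS and at 12.9, 17.7 and 14.6 CPM in A17α-MHCKO + DOX. After saline the knockout libraries thus lay below all A17fl/fl libraries, while the groups given doxorubicin overlapped. The genotype difference was -0.69 on the log2 scale (SE 0.24, adjusted p = 0.366) after saline, and -0.22 (SE 0.24, adjusted p = 0.9998) after doxorubicin with a 95% interval from -0.75 to 0.32. Without replicate 1 of A17fl/fl + NS, in which Hbegf was highest, the saline difference was -0.40 (adjusted p = 0.542) and the groups still did not overlap. Doxorubicin and saline differed by -0.55 (SE 0.24, adjusted p = 0.454) in A17fl/fl mice, or -0.27 (adjusted p = 0.691) without that replicate, and by -0.08 (SE 0.24) in A17α-MHCKO mice. Over both treatments Hbegf was at 15.5 CPM in A17α-MHCKO against 21.6 CPM in A17fl/fl mice, with a log2 difference of -0.45 (SE 0.17, adjusted p = 0.736), or -0.31 (adjusted p = 0.482) without the replicate. The exact permutation p for these 6 against 6 libraries was 0.043, or 0.087 without the replicate. Neutrophil markers were at 2603 CPM in the library with the most Hbegf, and the part of these cells in the value was not tested. Hbegf in the other 11 libraries ran from 12.9 to 22.5 CPM, where neutrophil markers were at most 69.6 CPM.

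Tgfa, for transforming growth factor α, a ligand of EGFR alone, rested on 19 to 105 fragments per library. Its level was 1.39, 6.28 and 1.5 CPM in A17fl/fl + NS, 3.65, 1.48 and 1.74 CPM in A17fl/fl + DOX, 1.17, 3.11 and 3.31 CPM in A17α-MHCKO + NS and 2.71, 1.75 and 2.13 CPM in A17α-MHCKO + DOX. All groups overlapped, and the 4 simple contrasts ran from -0.42 to -0.06 with SE of 0.60 to 0.61. Single libraries set these values. With doxorubicin in A17fl/fl mice the difference was -0.42, or -0.77 without A17fl/fl + NS replicate 1 and 0.66 without replicate 2, and between genotypes after saline it was -0.27, or -0.61 and 0.82, respectively. The 4 libraries with the highest sums of mesothelium and epicardium markers (157, 95.1, 74.0 and 45.4 CPM) held 6.28, 3.11, 3.31 and 3.65 CPM of Tgfa, and the other 8, with 4.85 to 25.9 CPM of the markers, held at most 2.71 CPM of Tgfa. Yet the library with 2.71 CPM of Tgfa, A17α-MHCKO + DOX replicate 1, was the lowest of all for these markers (4.85 CPM). Of the 9 markers, Upk1b and Muc16 were at 0 in 2 libraries, Msln, Upk3b, Krt19 and Lrrn4 in 1 library. Their part in the Tgfa values was not tested.

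Areg, coding for amphiregulin, another ligand of EGFR alone, was read in only 3 libraries. It had 8, 4 and 0 fragments in A17fl/fl + NS and 2, 0 and 0 in A17α-MHCKO + NS, and 0 in all 6 doxorubicin libraries. A count of 0 allows up to 3 fragments, or 0.130 to 0.195 CPM per library, counting error alone being considered, and the highest value was 0.462 CPM. Areg did not pass the filter on low counts. The exact permutation test of 6 doxorubicin against 6 saline libraries gave p = 0.182.

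Ereg, coding for epiregulin, a ligand of EGFR and ERBB4, was low in 11 libraries and high in 1. A17fl/fl + NS replicate 1 held 339 fragments (19.6 CPM), whereas replicates 2 and 3 of that group had 6 each. The counts were 13, 5 and 4 in A17fl/fl + DOX, 3, 8 and 3 in A17α-MHCKO + NS, and 6, 1 and 7 in A17α-MHCKO + DOX. The 11 libraries without replicate 1 thus ran from 0.0650 to 0.817 CPM. Ereg failed the filter too. Its exact permutation p over both treatments was 0.102 between the genotypes, and 0.203 without replicate 1. Ereg passed the filter in some fits that left out a library, and without A17fl/fl + NS replicate 2 it had an adjusted edgeR p of 0.036 for the genotypes after saline, a value that rests on replicate 1.

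Btc, coding for betacellulin, is shed mainly by ADAM10 and binds EGFR and ERBB4. Btc was at 1.44, 1.5 and 1.0 CPM in A17fl/fl + NS and at 2.14, 1.60 and 2.30 CPM in A17fl/fl + DOX, where the groups did not overlap. In A17α-MHCKO mice it was at 1.48, 1.51 and 1.05 CPM after saline and at 2.14, 2.08 and 1.15 CPM after doxorubicin, and 1 doxorubicin library lay in the saline range. The log2 difference with doxorubicin was 0.61 (SE 0.33, adjusted p = 0.525) and 0.41 (SE 0.33, adjusted p = 0.865), respectively. Over both genotypes the mean was 1.90 CPM with doxorubicin and 1.33 CPM with saline, with a log2 difference of 0.51 (SE 0.23, adjusted p = 0.467). The exact permutation p was 0.024 with all libraries and 0.030 without replicate 1 of A17fl/fl + NS. Only 16 to 37 fragments per library stand behind these levels.

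Nrg1 encodes neuregulin 1, the ligand of ERBB3 and ERBB4. Nrg1 was at 0.750, 1.68 and 1.0 CPM in A17fl/fl + NS and at 2.26, 2.34 and 1.8 CPM in A17fl/fl + DOX. It was at 0.679, 2.33 and 5.64 CPM in A17α-MHCKO + NS and at 3.78, 2.21 and 2.19 CPM in A17α-MHCKO + DOX. All doxorubicin libraries exceeded all saline libraries in A17fl/fl mice (0.90, SE 0.61, adjusted p = 0.609, or 0.67 without replicate 1 of A17fl/fl + NS), but not in the knockout (-0.08, SE 0.58), where the saline libraries spanned the widest range. After saline the genotypes differed by 1.33 (SE 0.60, adjusted p = 0.490), a value that dropped to 0.42 without A17α-MHCKO + NS replicate 3 and to 1.10 without A17fl/fl + NS replicate 1. Replicate 3 of A17α-MHCKO + NS was highest for atrial markers (8876 CPM) as well as for Nrg1, but the library second for these markers, A17fl/fl + NS replicate 2 (7865 CPM), held only 1.68 CPM of Nrg1.

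Endothelial markers, those of the cells that make neuregulin 1, were higher in the same contrasts. Their summed level was 1452 to 1529 CPM in A17fl/fl + NS, below all libraries of A17fl/fl + DOX (1627 to 1867 CPM) and of A17α-MHCKO + NS (1755 to 2009 CPM), and 1514 to 1788 CPM in A17α-MHCKO + DOX. Of the 10 markers 9 had a positive log2 difference in each of the contrasts, with medians of 0.30 for doxorubicin in A17fl/fl mice and 0.44 for genotype after saline (0.23 and 0.39 without replicate 1 of A17fl/fl + NS), and 2 and 3, respectively, were higher at an unadjusted p under 0.05. Over all genes 44.5% and 45.5% had a positive difference in these contrasts, and 10.7% and 10.1% passed that p in either direction. None of these markers was at 0 in any library. Replicate 3 of A17α-MHCKO + NS was highest for endothelial markers too, whereas A17α-MHCKO + DOX replicate 1, second for Nrg1 at 3.78 CPM, was only at rank 10 of 12 for them. The part of the atrium and of endothelial cells in the Nrg1 values was not tested. The difference between the Nrg1 responses to doxorubicin in the 2 genotypes was -0.98 (SE 0.84, adjusted p = 0.850), or -0.75 (adjusted p = 0.911) without A17fl/fl + NS replicate 1.

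Across the 8 members tested, none was called differentially expressed at an adjusted p under 0.05 in any of 7 contrasts, and DESeq2 likewise called 0 members in each. Over all 16101 genes edgeR called 0.0% after doxorubicin in A17fl/fl mice, 0.0% in A17α-MHCKO mice, 0.0186% between genotypes after saline, 0.00621% between genotypes after doxorubicin, 0.0% for the interaction, 0.0% for doxorubicin over both genotypes and 0.0248% for genotype over both treatments. DESeq2 called 151, 40, 177, 3, 21, 178 and 31 genes, respectively. The contrasts share groups, A17fl/fl + NS above all, and are not independent of each other. Hence few genes of any kind met this limit with 3 mice per group, and a missing call does not show that a member was equal between groups.

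At an unadjusted p under 0.05, doxorubicin in A17fl/fl mice gave 2 of 8 members (Egfr and Hbegf, both lower), where 10.7% of all genes passed. In A17α-MHCKO mice it gave 1 (Egfr, lower), against 6.42% of all genes. Between genotypes after saline 2 members passed (Hbegf lower, Nrg1 higher), against 10.1%, and after doxorubicin 0 passed, against 2.7%. The interaction gave 0 members against 5.99%, doxorubicin over both genotypes 1 (Egfr) against 10.7%, and genotype over both treatments 1 (Hbegf) against 6.65%. Leaving out replicate 1 of A17fl/fl + NS changed these counts. Doxorubicin in A17fl/fl mice then gave 0 members (10.2% of all genes), doxorubicin in A17α-MHCKO mice 2 (Egfr lower and Erbb3 higher, against 11.5%), genotype after saline 1 (Erbb3 lower, against 10.2%) and genotype after doxorubicin 0 (5.85%). The interaction gave 1 (Erbb3) against 7.13%, doxorubicin over both genotypes 2 (Egfr and Erbb4, both lower) against 15%, and genotype over both treatments 2 (Hbegf and Erbb3, both lower) against 10.3%. The study's limits (absolute log2 fold change over 1, unadjusted p under 0.05 and mean FPKM over 1 in a group compared) were met by 0 members after doxorubicin in A17fl/fl mice, where 2.82% of genes met them, and by 0 between genotypes after doxorubicin, where 0.205% did. Groups did not overlap for 3 members with doxorubicin in A17fl/fl mice (Egfr, Btc and Nrg1, background 13.3%), for 3 in A17α-MHCKO mice (Erbb2, Erbb3 and Erbb4, 16.9%), for 2 between genotypes after saline (Erbb2 and Hbegf, 10.9%) and for 0 between genotypes after doxorubicin (14.1%). Without that replicate the 3 members in A17fl/fl mice were the same (background 28.2%), and Erbb3 joined the others between genotypes after saline (25.3%).

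**Figure D4:**
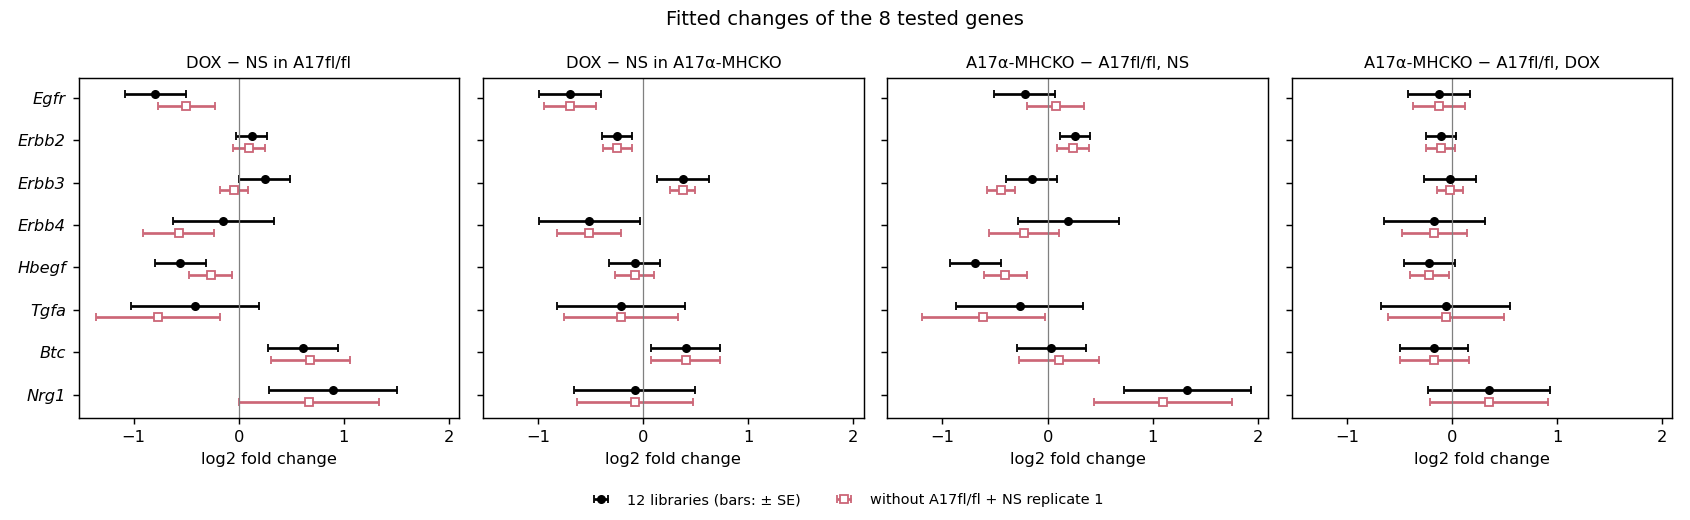
Log2 fold changes (points) with SE (bars) of the 8 tested genes in 4 contrasts from the fit with 12 libraries (filled) and without A17fl/fl + NS replicate 1 (open). Egfr lies below 0 in both doxorubicin contrasts in both fits, Hbegf lies below 0 in the saline genotype contrast, and Erbb3 and Erbb4 shift when the replicate is left out.

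The median log2 difference of the 8 was -0.01 for doxorubicin in A17fl/fl mice (-0.04 over all genes), -0.15 in A17α-MHCKO mice (0.00 over all genes) and -0.06 between genotypes after saline (-0.03 over all genes). With replicate 1 of A17fl/fl + NS left out the first and the last of these were -0.16 (-0.01 over all genes) and -0.08 (-0.01 over all genes). Of the 8 values 4 were negative for doxorubicin in A17fl/fl mice, 6 in A17α-MHCKO mice and 4 between genotypes after saline. Between genotypes after doxorubicin the median was -0.11 (0.01 over all genes), and 7 of 8 values were negative but small, from -0.22 for Hbegf to -0.02 for Erbb3, with Nrg1 at 0.35. Their 95% intervals all included 0 and bounded the difference most tightly for Erbb2 (-0.42 to 0.21), Hbegf (-0.75 to 0.32) and Erbb3 (-0.56 to 0.52), and loosely for Tgfa (-1.40 to 1.29) and Nrg1 (-0.93 to 1.63).

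The rest of the pathway was read from 5 lists. Of the 5 other EGF-family ligands, Egf, Nrg2 and Nrg4 were tested, with 0 at an adjusted p under 0.05, while Epgn (at most 7 fragments) and Nrg3 (at most 1) were too low. Nrg2, a further neuregulin, differed by 0.83 (SE 0.29, adjusted p = 0.367, or 0.56 without replicate 1 of A17fl/fl + NS) between genotypes after saline and by -0.68 (SE 0.29, adjusted p = 0.767) with doxorubicin in A17α-MHCKO mice, and the groups did not overlap in either contrast. The 3 libraries of A17α-MHCKO + NS held 3.52, 4.49 and 4.71 CPM of Nrg2, and the other 9 between 1.39 and 3.21 CPM. With doxorubicin in A17fl/fl mice, Nrg4 was at -0.59 (adjusted p = 0.663, or -0.87 without replicate 1 of A17fl/fl + NS) and Egf, the eponymous growth factor, at -0.62 (adjusted p = 0.667, or -1.07 without it). Between genotypes after doxorubicin Egf was at 0.53 (adjusted p = 0.9998) and Nrg4 at 0.50 (adjusted p = 0.9998). Nrg4 was at 0.43 (adjusted p = 0.901) with doxorubicin in A17α-MHCKO mice. Between genotypes after saline Nrg4 was at -0.52 (adjusted p = 0.736, or -0.80 without replicate 1 of A17fl/fl + NS).

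Of 12 sheddases and shedding partners, 0 passed an adjusted p under 0.05, and 3, 1, 4 and 1 were lower and 0 higher at an unadjusted p in the 4 simple contrasts, taken as doxorubicin in A17fl/fl, doxorubicin in A17α-MHCKO, genotype after saline and genotype after doxorubicin. Over all genes 10.7%, 6.42%, 10.1% and 2.7% passed in these contrasts. The list includes Adam17, the gene cut in the knockout, so its fall between genotypes was set by the design. Adam17 had the smallest p of the list after saline (-0.64, SE 0.17, adjusted p = 0.313, or -0.41 without replicate 1 of A17fl/fl + NS). After doxorubicin it was the 1 that was lower (-0.63, SE 0.18, adjusted p = 0.9998, or -0.63 without that replicate). When replicate 1 of A17fl/fl + NS was left out, the sheddases lower were 2 in each contrast and 1 was higher, between genotypes after saline, where over all genes 10.2%, 11.5%, 10.2% and 5.85% passed. Their median differences were -0.29, -0.02, -0.40 and -0.14 with all libraries, against -0.04, 0.00, -0.03 and 0.01 over all genes, and 0.03, -0.02, -0.15 and -0.14 without that replicate. Adam19, a protease that can cut neuregulin 1 and is needed in heart development, had the smallest p in the knockout. It was at 45.4, 54.2 and 59.5 CPM in A17α-MHCKO + NS and at 20.7, 19.8 and 21.2 CPM in A17α-MHCKO + DOX, the 3 lowest of the 12 libraries, a log2 difference of -1.37 (SE 0.36, adjusted p = 0.666). In A17fl/fl mice Adam19 was at 91.2, 36.3 and 25.5 CPM after saline and at 31.1, 34.4 and 29.7 CPM after doxorubicin. Without replicate 1 of A17fl/fl + NS, which held the 91.2 CPM, the difference in A17α-MHCKO mice was still -1.37 with a smaller spread (SE 0.15, adjusted p = 0.021), and the difference between the genotypes' responses was -1.40 (SE 0.22, adjusted p = 0.254), against -0.68 (SE 0.50, adjusted p = 0.844) with all libraries. Between genotypes after doxorubicin Adam19 was at -0.63 (SE 0.36, adjusted p = 0.9998), with no overlap. Adam10, the sheddase of betacellulin, was at -0.34 (SE 0.19, adjusted p = 0.810) with doxorubicin in the knockout.

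Adam8 and Adam12, proteases of the same family, had log2 differences of -4.19 (adjusted p = 0.372) and -3.98 (adjusted p = 0.358) with doxorubicin in A17fl/fl mice and rested on 1 library. Adam8 was at 131 CPM in A17fl/fl + NS replicate 1 and at most 3.46 CPM elsewhere, and Adam12 at 43.6 CPM and at most 1.95 CPM. Without that library the values were 0.15 for Adam8 and -0.47 for Adam12. The genotype difference of Adam8 after saline likewise moved from -4.77 to -0.44.

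Of 30 signal transducers, 0 passed at an adjusted p. At an unadjusted p 1 was lower between genotypes after saline and 0 differed in the other 3 simple contrasts. Over all genes 10.7%, 6.42%, 10.1% and 2.7% passed, with the contrasts in the order used for the sheddases. Median differences of the transducers were -0.01, -0.07, -0.05 and -0.08, against -0.04, 0.00, -0.03 and 0.01 over all genes. With replicate 1 of A17fl/fl + NS left out they were -0.05, -0.08, 0.02 and -0.08, against -0.01, 0.00, -0.01 and 0.01 over all genes. Without replicate 1 of A17fl/fl + NS, 2 were higher and 1 lower with doxorubicin in A17fl/fl mice, 3 were lower with doxorubicin in A17α-MHCKO mice, 2 were higher and 3 lower between genotypes after saline and 0 differed after doxorubicin. The shares over all genes were then 10.2%, 11.5%, 10.2% and 5.85%. With all libraries the 1 was Stat3, a transcription factor activated by receptor signaling, at -0.66 (SE 0.19, adjusted p = 0.323), or -0.39 without replicate 1 of A17fl/fl + NS. Stat3 was at -0.40 (adjusted p = 0.484, or -0.13 without that replicate) with doxorubicin in A17fl/fl mice. Pik3ca, a catalytic PI3K subunit, was at -0.42 (adjusted p = 0.480, or -0.61 without it) there and at -0.40 (adjusted p = 0.529, or -0.59) between genotypes after saline. In A17α-MHCKO mice given doxorubicin, the kinase Src was at -0.64 (adjusted p = 0.800) and the adaptor Shc1 at -0.29 (adjusted p = 0.824). Between genotypes after doxorubicin, Mtor, a growth kinase, was at -0.37 (SE 0.21) and the RAS activator Sos2 at -0.21 (SE 0.18), neither with an adjusted p below 0.999.

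Of 22 inhibitors of receptors or ERK, 0 passed at an adjusted p, and at an unadjusted p 4 were lower with doxorubicin in A17fl/fl mice, 1 was higher with doxorubicin in A17α-MHCKO mice, 1 was lower between genotypes after saline and 0 differed after doxorubicin, where over all genes 10.7%, 6.42%, 10.1% and 2.7% passed. Their medians were -0.10, -0.10, -0.15 and -0.04, against -0.04, 0.00, -0.03 and 0.01 over all genes. With replicate 1 of A17fl/fl + NS left out they were -0.03, -0.10, -0.06 and -0.03, against -0.01, 0.00, -0.01 and 0.01 over all genes. Without replicate 1 of A17fl/fl + NS, 3 were lower and 1 higher with doxorubicin in A17fl/fl mice, 1 was higher with doxorubicin in A17α-MHCKO mice and 0 differed in the other 2 contrasts. The shares over all genes were then 10.2%, 11.5%, 10.2% and 5.85%. The smallest p belonged to Errfi1, which encodes MIG6, a feedback protein that binds and blocks the EGFR kinase. Errfi1 was at 108, 76.0 and 51.7 CPM in A17fl/fl + NS and at 41.2, 35 and 20.4 CPM in A17fl/fl + DOX, with no overlap (-1.29, SE 0.33, adjusted p = 0.334). Without replicate 1 of A17fl/fl + NS its difference was -0.99 (adjusted p = 0.332). In A17α-MHCKO mice Errfi1 was at 56.2, 48.8 and 45.5 CPM after saline and at 53.3, 33 and 27.2 CPM after doxorubicin, and the difference between the responses was 0.88 (SE 0.46, adjusted p = 0.844), or 0.58 (adjusted p = 0.830) without that replicate. Cblb, a ubiquitin ligase acting on activated receptors, was at -0.79 (SE 0.27, adjusted p = 0.400, or -0.62 without that replicate) in A17fl/fl and at -0.52 (SE 0.27, adjusted p = 0.807) in A17α-MHCKO mice. Spry2, a brake on RAS and ERK signaling, was at 0.45 (SE 0.20, adjusted p = 0.767) with doxorubicin in the knockout. Between genotypes, Socs4 was at -0.32 (adjusted p = 0.473) and Ptpn1 at -0.73 (adjusted p = 0.500, or -0.03 without replicate 1) after saline, and Cbl at -0.26 (SE 0.16) and Dusp4 at 0.73 (SE 0.48) after doxorubicin.

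Of 21 genes induced by ERK signaling, 0 passed at an adjusted p. At an unadjusted p 9 were lower with doxorubicin in A17fl/fl mice (median -0.68) and 9 between genotypes after saline (median -1.03), while in A17α-MHCKO mice given doxorubicin 1 was higher (median 0.11) and between genotypes after doxorubicin 0 differed (median -0.02). Over all genes 10.7%, 10.1%, 6.42% and 2.7% passed in these contrasts, with medians of -0.04, -0.03, 0.00 and 0.01. Both of the larger counts used A17fl/fl + NS replicate 1. Without it, 4 were higher and 4 lower with doxorubicin in A17fl/fl mice (median -0.19), and 5 were lower between genotypes after saline (median -0.24), where 10.2% of all genes passed in each, and 4 were higher with doxorubicin in A17α-MHCKO mice (11.5%) and 1 was lower between genotypes after doxorubicin (5.85%). Fosl2, an AP-1 subunit, was at 197, 60.0 and 57.7 CPM in A17fl/fl + NS and at 31.4, 29.9 and 34.5 CPM in A17fl/fl + DOX (-1.71, SE 0.39, adjusted p = 0.324), and remained at -0.88 (SE 0.14, adjusted p = 0.105) without that replicate. Between genotypes after saline Fosl2 was at -1.48 (adjusted p = 0.308, or -0.65 without the replicate) and Ier3, an early response gene, at -2.77 (adjusted p = 0.305), or -1.01 without the replicate. Btg2, a growth-restraining early gene, was at -0.90 (adjusted p = 0.334, or -0.56 without the replicate) with doxorubicin in A17fl/fl mice. In A17α-MHCKO mice given doxorubicin, the ERK target Etv5 was at 0.82 (SE 0.25, adjusted p = 0.695) and Phlda1 at 0.43 (adjusted p = 0.856). After doxorubicin the genotypes differed by -0.92 (SE 0.51) for Egr1 and by 0.33 (SE 0.25) for Etv5, neither with an adjusted p below 0.999.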

How the data were processed

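According to the study's methods, RNA of mouse left ventricles was made into stranded paired-end libraries, fragments were counted with StringTie and tested with edgeR. The submitters' processing notes also name CASAVA 1.8, HISAT2, SAMtools 1.3.1 and the build GRCm39, without their roles. The authors deposited, for 53465 genes, unnormalized fragment counts and FPKM (counts per gene length and library total) of the 12 mice, and 0 sample columns were left unused. Counts went into every test and FPKM only into levels between genes and the study's limit. Samples were grouped by their labelled genotype and treatment.

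The quasi-likelihood test of edgeR 4.0.16 (R 4.3.3; filterByExpr, TMM, glmQLFit, glmQLFTest, Benjamini-Hochberg over 16101 genes) was fitted once to all 4 groups and tested on simulated data. The text prints its adjusted p. SE is the absolute log2 fold change over the square root of F and is approximate. Permutation tests were exact and two-sided, and 3 against 3 cannot go below 0.1. They were run for the 10 members and Adam17 in 6 contrasts, and repeated without A17fl/fl + NS replicate 1 in the contrasts that used it. Their p-values are unadjusted and are printed for some of these genes only. They were not run over all genes, so no background share stands beside them. Replicates are separate mice. Depth was 15950717 to 21725076 fragments, and the zero-count limits cover counting error only. Alternatives were DESeq2 1.42.0, RLE, other filters, 2 groups alone, a replicate block and each library left out. Same-numbered libraries did not deviate together (correlations from -0.104 to 0.219), so replicate numbers were not taken as pairs.

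The 10 members and the lists were chosen with earlier results of these data known. Named were all members and, of each pathway list, the 2 genes with the smallest p in each simple contrast. Nrdc was matched by its older symbol Nrd1. The RefSeq tables are of another build (GRCm38.p6) than the labels name, so they served only for the 2 promoter sequences, printed with their GRCm38.p6 positions, and for the order of genes on chromosome 5. Overlapping genes may share fragments, since the strand setting of the counting was not given in the sources used here.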

Additional observations from a re-analysis of the deposited data

How the results depend on the processing

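The log2 difference of the 8 tested members in 7 contrasts gave 56 results, and these were recomputed in 984 alternatives in all. No alternative moved a result across an adjusted p of 0.05. A sign change was counted as a reversal only where the value with all libraries exceeded its SE, which happened for 1 value, Erbb3 with doxorubicin in A17fl/fl mice, 0.25 with all libraries and -0.045 without A17fl/fl + NS replicate 1 (-0.045 to 0.45 over the libraries left out). A further 45 sign changes lay within 1 SE of 0. The number of members called was 0 in every contrast and alternative, except that it ranged from 0 to 1 between genotypes after saline when libraries were left out, the 1 being Ereg without A17fl/fl + NS replicate 2, where the filter kept it (log2 difference -5.32, adjusted p = 0.036). That setting also moved the count over all genes from 3 to 672. With the replicate block, 0 members were called in each contrast, the log2 difference of Egfr with doxorubicin over both genotypes was -0.71, and the calls over all genes went from 0, 0, 3, 1, 0, 0 and 4 to 0, 0, 1, 1, 0, 0 and 2. Btc rested on 16 to 37 fragments per library, Nrg1 on 11 to 97 and Tgfa on 19 to 105. Few fragments did not always go with a wide spread. With doxorubicin in A17fl/fl mice the SE was 0.33 for Btc and 0.48 for Erbb4, which had 64 to 378 fragments. The parts of depth and of spread between mice were not tested.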

Other observations

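The locus around Ereg was looked at after its values had been seen. In the RefSeq order on chromosome 5 the chemokine genes Cxcl5, Ppbp, Pf4, Cxcl3, Cxcl15, Cxcl1 and Cxcl2 come before Mthfd2l, Epgn, Ereg, Areg, Btc and Parm1. A17fl/fl + NS replicate 1, the library with 339 fragments of Ereg, held 9610 fragments of Cxcl2 against 0 to 11 in the other 11 libraries, 4901 of Cxcl3 against 0, 3979 of Cxcl5 against 2 to 22 and 1118 of Cxcl1 against 6 to 56. These genes encode neutrophil attractants. Pf4 (2201 fragments against 233 to 525), Ppbp (305 against 18 to 210) and Areg (8 against 0 to 4) were also higher in replicate 1 than in the other 11 libraries. Btc (25 fragments against 16 to 37), Mthfd2l (82 against 64 to 167) and Parm1 (1717 against 1264 to 2365) were within the range of the other libraries, as were Epgn (2 against 0 to 7) and Cxcl15 (0 against 0 to 2).

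The marker lists not yet described were summed in the same way. Macrophage markers were at 1411 CPM in A17fl/fl + NS replicate 1 and at 555 to 750 in the other 11 libraries, and mast cell markers at 189 and 13.3 to 26.1 CPM, with Ms4a2 at 0 in 7 libraries. Schwann cell markers, of interest because these cells use ERBB3, ranged from 15.5 to 36.7 CPM over the 12 libraries. In A17α-MHCKO mice they were at 21.0 to 25.5 CPM after doxorubicin and at 26.5 to 33.9 CPM after saline, the opposite direction to Erbb3. In A17fl/fl mice the groups overlapped for these markers. Their part in the Erbb3 values was not tested. Smooth muscle markers ranged from 1039 to 1917 CPM, adipocyte markers from 134 to 330 CPM and T and NK cell markers from 4.51 to 14.9 CPM.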
